A study of Mus musculus with 8 samples.

Results

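The transcripts described here come from 10 imprinted growth genes of the mouse: Dlk1, Meg3, Peg3, Cdkn1c, Plagl1, Grb10, Mest, Ndn, Igf2r and Gnas. Every probe that the array's design names for one of these genes, or for an older alias of it, was taken, which gave 22 probes of 39429. Of these, 19 were well above background on at least 2 of the 8 arrays and are among the 28409 probes that met this filter and were tested. The 10 genes all kept at least 1 tested probe, and 3 probes (1 each for Dlk1, Peg3 and Gnas) were at background on all 8 arrays.

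RNA of mouse pro-B cells was hybridised to 8 one-colour arrays, 2 per group. All cells came from BALB/c mice without Rag1, a recombinase gene whose loss stops B cells at the pro-B stage. They were grown on OP9 stroma with IL-7, transduced with a retrovirus carrying GFP, and sorted as GFP-positive cells 4 days later. Replicates 1 and 2 of a group are separate sorts per the labels.

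The groups were fetal liver (FL) cells with let-7b in an MSCV vector, FL cells with the empty vector, adult bone marrow (BM) cells with Lin28b in the pMIG vector, and BM cells with the empty vector. FL cells were taken at gestation day 16, from 8 embryos per sort on average, and BM cells from 2 mice per sort. A plate of 24 wells was divided into 12 wells for the virus under test and 12 for its empty vector, and 100 ng of RNA was used for labelling. No group was free of virus, stroma or IL-7. Retroviral vectors of this kind express their insert in every transduced cell, so the let-7b and Lin28b groups are models of forced expression.

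Imprinted genes are expressed from 1 parental copy, set by DNA methylation laid down in the germ line and kept by maintenance factors after fertilisation. Several act on growth in opposed ways: paternally expressed genes often promote fetal growth, and maternally expressed genes often restrain it. Many are abundant in the fetus and decline after birth. let-7 microRNAs silence mRNAs through their seed, and Lin28b, an RNA-binding protein of fetal cells, blocks let-7 maturation. The arrays report total RNA of both parental copies, so they give no measure of imprinting itself.

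The sequences shown first are those that the results turn on. The 22-base let-7b (RefSeq, GRCm38.p6, plus strand, chr15:85707325-85707346) is printed with its seed, bases 2 to 8, in capitals, since it is the agent of the FL comparison.
mmu-let-7b-5p: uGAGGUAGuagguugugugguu
The seed's perfect complement, CTACCTC, was searched for in the sense sequence of each 60-base probe. It was in 0 of the 22 member probes and in 150 of 39429 probes (0.38%). The probes sample only short stretches of each transcript, so this describes the printed windows alone.

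Meg3 had calls in both directions between the tissues with the scaling used throughout, so its 2 probes with opposite calls are shown, in order along the plus strand of chromosome 12 (build mm9 of the array design, at chr12:110799558-110799617 and chr12:110809678-110809737). They are in lower case throughout because no stretch is singled out.
Meg3 A_52_P196568: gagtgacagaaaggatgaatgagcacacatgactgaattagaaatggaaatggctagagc
Meg3 A_51_P455997: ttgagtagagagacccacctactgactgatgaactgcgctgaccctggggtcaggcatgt

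The brightest Plagl1 probe (chr10:12848421-12848480, plus strand, mm9) lies in coding sequence with short repeats, and its copies of CCACAG are in capitals. It holds 4 of them on its printed strand, and it was the single probe of 39429 with 3 or more (0.00254%).
Plagl1 A_55_P1961965: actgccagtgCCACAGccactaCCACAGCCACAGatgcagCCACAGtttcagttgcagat
The Ndn probe (chr7:69493847-69493906, plus strand, mm9) and the coding probe of Mest (chr6:30692160-30692219, plus strand, mm9) are shown as examples of a probe measured on every array and of one measured on 2.
Ndn A_52_P451644: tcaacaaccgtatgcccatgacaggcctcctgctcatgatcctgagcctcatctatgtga
Mest A_55_P2151868: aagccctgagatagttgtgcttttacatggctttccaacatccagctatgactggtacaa

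Levels are given as log2 of the processed signal relative to each array's 75th percentile, so 0 is the brightness of the spot at that percentile, and a difference of 1 is a doubling. Between 56.5% and 68.6% of spots were well above background per array. The lowest level that counted as well above background was -5.56 to -4.49 on the FL arrays and -7.13 to -6.55 on the BM arrays, so FL arrays measure less far down. Arrays correlated at 0.969 to 0.989 within FL, 0.99 to 0.994 within BM and 0.908 to 0.941 between the tissues. The median SD of a probe was 0.219 and 0.283 in the FL groups, against 0.0746 and 0.0819 in the BM groups. All 13 pro-B cell markers on the array were well above background on all 8 arrays. The transduced gene checks the BM labels: Lin28b probe A_52_P532355 was at 0.35 and 0.07 with Lin28b and at -9.16 and -8.85 with the empty vector, where it was not well above background, at least a 121-fold difference (limma, adjusted p = 0.00174). The other Lin28b probe, A_55_P1970905, was at -5.86 and -5.75 against -6.58 and -6.32 (difference 0.64, not called).

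**Figure D1:**
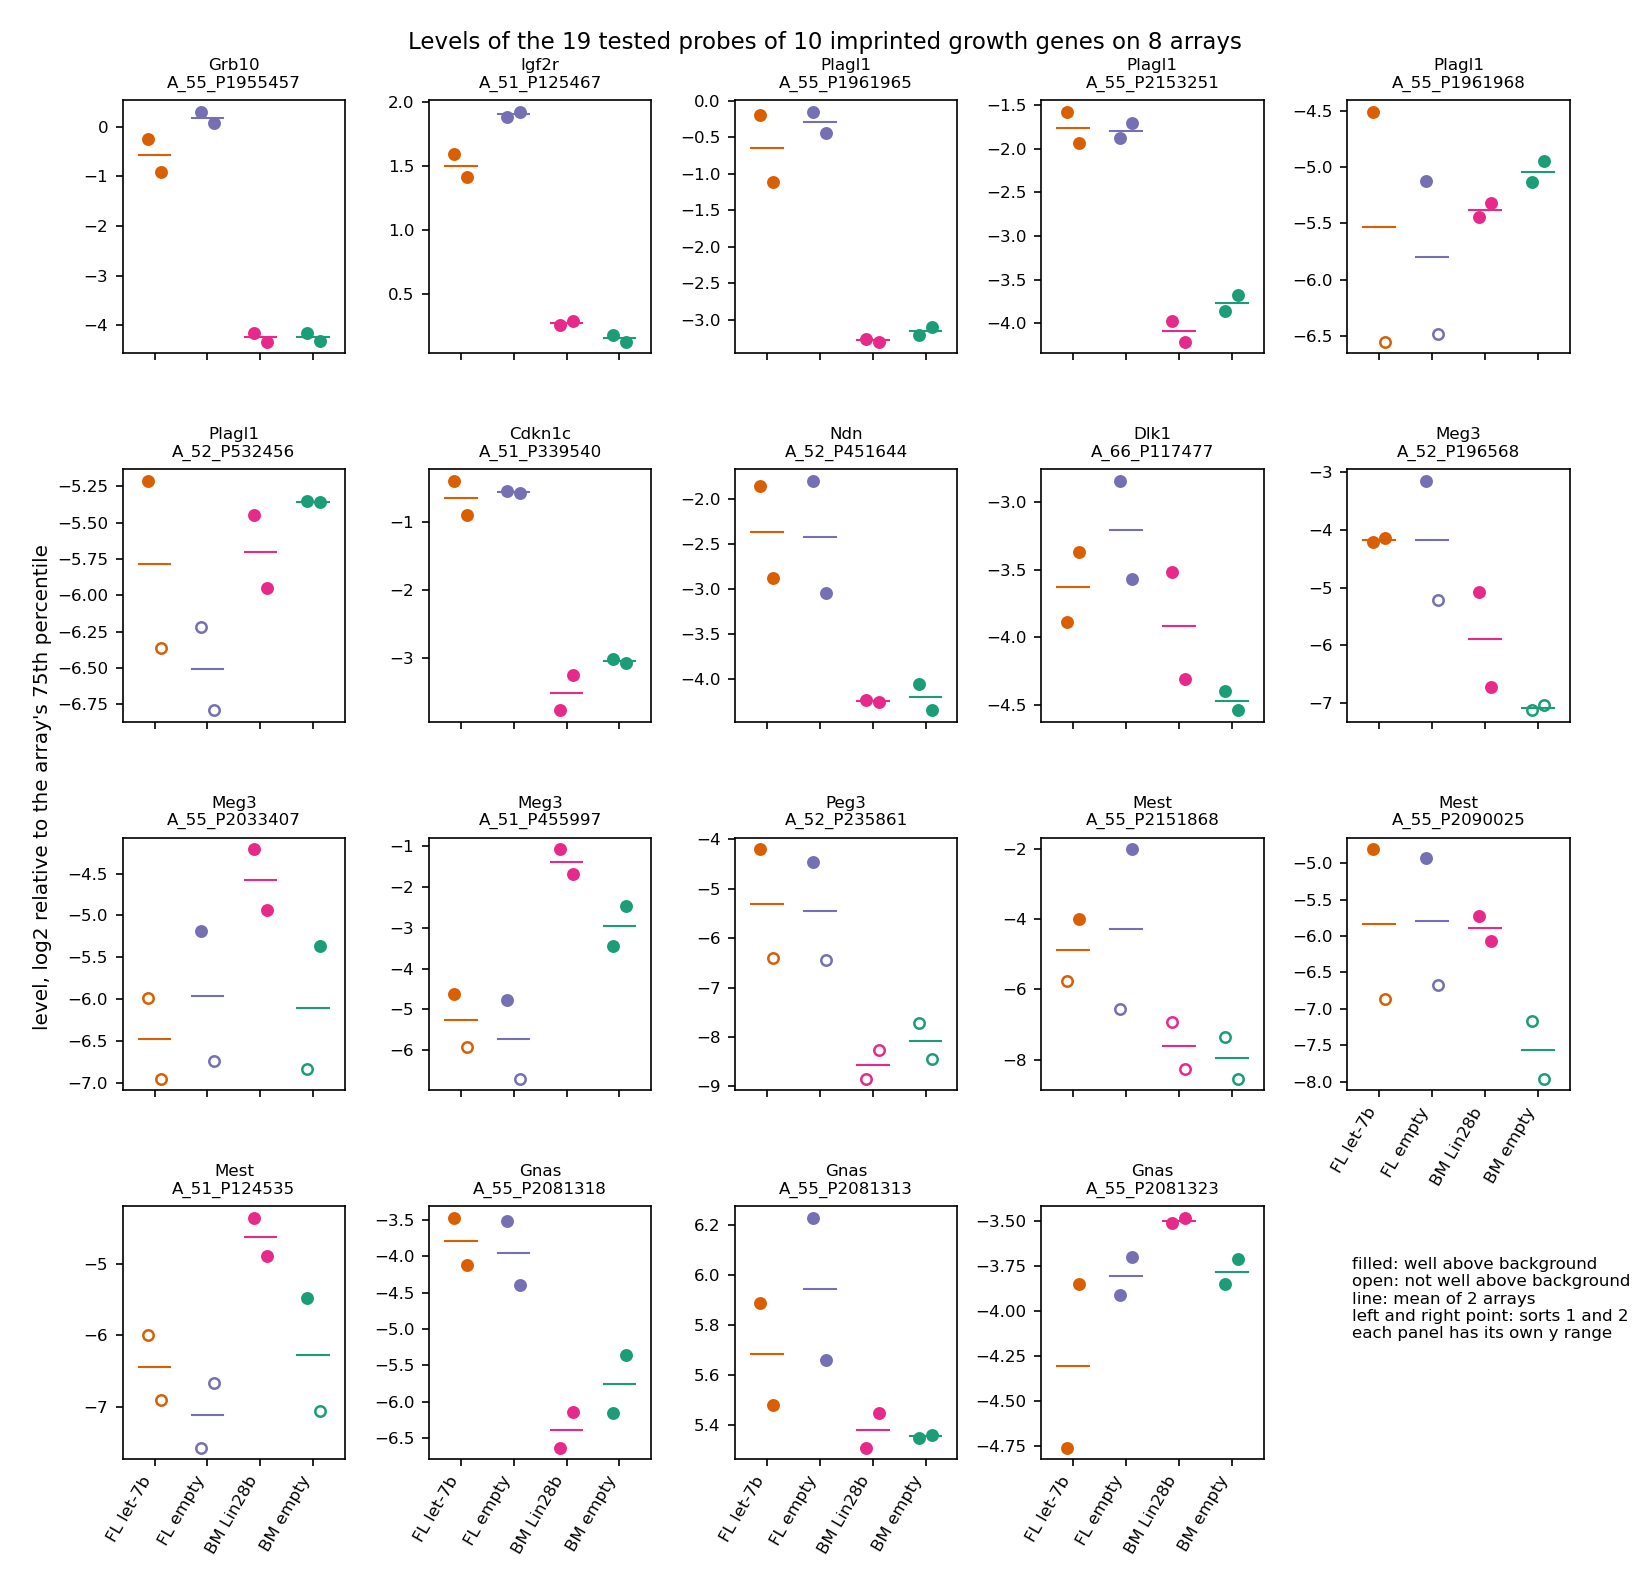
Levels of the 19 tested probes by array (y axis: log2 relative to the array's 75th percentile, each panel with its own range; x axis: group; filled points are well above background, open points are not, lines are means of 2 arrays). Grb10, Igf2r, Cdkn1c and 2 of 4 Plagl1 probes separate the FL from the BM arrays, whereas Meg3 A_51_P455997 is lowest in the FL groups.

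The first comparison set FL against BM cells, each with the empty vector used for that tissue. It describes differences between fetal and adult pro-B cells on arrays where vector, slide and scan differ too. Grb10, Igf2r, Cdkn1c, Ndn, Dlk1, 2 Plagl1 probes and 1 probe each of Gnas and Meg3 were higher in FL cells, and another Meg3 probe was lower. The other Plagl1 probes were not called. Of 19 probes, 9 were called higher and 1 lower at an adjusted p below 0.05, in 8 of the 10 genes. Over all probes 39.1% were called higher and 19.8% lower (58.9% in all), so the counts alone do not set these genes apart. The FL and BM arrays did not overlap for 15 of 19 probes (13 higher, 2 lower), against 82.6% of all probes (53.7% higher, 28.9% lower). The members' median difference was 1.76, against 0.47 over all probes. In bulk RNA, fewer cells of a type and less RNA per cell cannot be told apart.

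Grb10, an adaptor that binds the insulin and IGF1 receptors and restrains their signal, differed most. Its level was 0.30 and 0.07 in FL cells with the empty vector, against -4.15 and -4.32 in BM cells with the empty vector. Both FL arrays lay far above both BM arrays. The difference was 4.42 ± 0.25 (standard error, n = 2 per group), or 21.4-fold, with limma adjusted p = 0.000485. Of the tested probes of similar brightness (level -4 to -2), 99.5% had a smaller difference.

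Igf2r, the receptor that takes up IGF2 and delivers it to lysosomes, was at 1.88 and 1.92 in FL cells and at 0.18 and 0.13 in BM cells. Each of these values is the mean of 10 copies of its probe. The sorts of a group differed little, and the difference was 1.74 ± 0.13, or 3.35-fold (limma, adjusted p = 0.000616). Cdkn1c, which encodes the cyclin-dependent kinase inhibitor p57, was at -0.54 and -0.58 in FL cells, against -3.02 and -3.07 in BM cells. It differed by 2.48 ± 0.24, or 5.58-fold (limma, adjusted p = 0.000967).

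Plagl1, a zinc finger transcription factor that induces cell cycle arrest when overexpressed, gave 2 kinds of result. Its coding probe shown above was at -0.15 and -0.44 in FL cells and at -3.21 and -3.10 in BM cells, a difference of 2.86 ± 0.31 (limma, adjusted p = 0.00118). A_55_P2153251, a short way downstream, was at -1.88 and -1.71 against -3.86 and -3.68, with a difference of 1.97 ± 0.18 (limma, adjusted p = 0.000909). The other 2 probes start 1981 and more bases farther along the plus strand, and neither was called. A_55_P1961968 was at -5.12 and -6.48 in FL cells, against -5.13 and -4.95 in BM cells. A_52_P532456 was at -6.22 and -6.79 in FL cells, where it was not well above background, against -5.35 and -5.36 in BM cells (limma, adjusted p = 0.0592; 0.0194 without either let-7b array). These distal probes are not independent of each other, as 46 of 48 aligned bases are identical between them. With normexp background correction both were higher in FL cells (1.54 each, not called), so the direction at the downstream probes depends on the background correction.

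Ndn, a MAGE-family protein linked to growth arrest of neurons, was at -1.80 and -3.05 in FL cells and at -4.06 and -4.35 in BM cells. It differed by 1.78 ± 0.50 (limma, adjusted p = 0.0255). Dlk1, a transmembrane protein of the Notch ligand family also known as Pref-1, was at -2.84 and -3.57 against -4.40 and -4.54, and differed by 1.26 ± 0.37 (limma, adjusted p = 0.0306). Both genes had FL arrays above both BM arrays, by margins similar to the spread of the FL sorts. Leaving out an array ended these calls: without either BM array, or without FL replicate 1, the adjusted p was 0.0776, 0.111 and 0.0839 for Ndn and 0.0955, 0.121 and 0.122 for Dlk1, and the difference of Ndn was 1.15 without FL replicate 1.

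Gnas encodes the stimulatory G protein subunit that couples receptors to adenylyl cyclase, and its locus gives several transcripts from separate promoters. The probe for the main transcripts, A_55_P2081313, was at 6.23 and 5.66 in FL cells, against 5.35 and 5.36 in BM cells, a difference of 0.59 ± 0.24 that was not called (limma, adjusted p = 0.0788). It was 0.87 without FL replicate 2 (adjusted p = 0.0231), 0.30 without FL replicate 1 and 0.03 with quantile scaling (adjusted p = 0.936). A_55_P2081318, which the design annotates to the exon of the extra-large form, was at -3.52 and -4.40 in FL cells and at -6.16 and -5.36 in BM cells. It differed by 1.80 ± 0.44 (limma, adjusted p = 0.016), and the adjusted p was 0.085 without BM replicate 1 and 0.0652 without FL replicate 1. A_55_P2081323 showed no such gap, with -3.91 and -3.70 against -3.85 and -3.71.

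Meg3, a long noncoding RNA of the Dlk1 cluster expressed from the maternal copy, had calls in both directions. A_51_P455997, its most downstream probe, was at -4.76 and -6.70 in FL cells (the lower value not well above background), against -3.45 and -2.46 in BM cells, a difference of -2.78 ± 0.78 (limma, adjusted p = 0.0251). A_52_P196568 was at -3.15 and -5.22 in FL cells (again the lower value not well above background) and at -7.12 and -7.03, not well above background, in BM cells. It was at least 5.75-fold higher in FL cells (limma, adjusted p = 0.0236). The upstream probe A_55_P2033407 did not separate the tissues (0.14 ± 0.73). Both calls were lost without BM replicate 1 (adjusted p = 0.0931 and 0.0541 for A_52_P196568 and A_51_P455997) or 2 (0.0858 and 0.121), the first also without FL replicate 1 (difference 1.86, adjusted p = 0.0738) and the second also without FL replicate 2 (-1.81, 0.087).

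Peg3, a zinc finger protein of placenta, brain and muscle, and Mest, a putative hydrolase of mesoderm, were near the detection limit. Peg3 probe A_52_P235861 was at -4.45 and -6.45 in FL cells, against -7.71 and -8.45 in BM cells, with 1 of 4 arrays well above background. That is at least a 2.39-fold difference, not called (limma, adjusted p = 0.0534), and the adjusted p was 0.0334 without FL replicate 2 and 0.0312 without either let-7b array. The fitted difference was 1.63 (adjusted p = 0.217) without FL replicate 1, which leaves an FL array at background, and 1.39 (0.17) with quantile scaling. The coding Mest probe was at -6.57 and -2.0 in FL cells and at -7.34 and -8.55 in BM cells, and only the second FL array was well above background. Its difference was carried by that 1 array (at least 5.36-fold, limma adjusted p = 0.0881; 0.00908 without FL replicate 1). Of the other Mest probes, A_55_P2090025 was at -4.93 and -6.67 against -7.16 and -7.96, and A_51_P124535 was at -7.57 and -6.67 against -5.48 and -7.06. Neither was called.

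The tissue difference at the dim end must be read beside the arrays' own shift. The 8931 probes at background on all 8 arrays (none well above it) were also higher on FL arrays, by a median of 1.65 (quartiles 1.45 and 1.87). The 3 member probes among them gave 2.20 for Dlk1, 1.80 for Peg3 and 2.02 for Gnas. Among tested probes the median difference was 1.36 at levels below -6, 1.17 at -6 to -4, 0.62 at -4 to -2 and 0.07 at -2 to 0. It was -0.05 at 0 to 2, 0.05 at 2 to 4 and again higher, 0.88, above 4. The values of Cdkn1c (mean level -1.80), Plagl1 A_55_P1961965 (-1.72) and Igf2r (1.03) were thus set against medians near 0. Those of Dlk1, Ndn, Gnas A_55_P2081318 and Meg3 A_52_P196568 were set against medians of 0.62 to 1.17. The 0.59 of the main Gnas probe (mean level 5.65) was below its median of 0.88, and Peg3 A_52_P235861 and the Mest probes were set against 1.36.

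Quantile scaling, which forces the arrays to 1 distribution, brought the median of all probes to 0 and changed the split of calls over all probes to 6955 higher and 7759 lower, against 11113 higher and 5620 lower with the 75th percentile. Under it 5 member probes were called higher (24.5% of all probes) and 4 lower (27.3%). Grb10 (4.01), Plagl1 A_55_P1961965 (2.58) and A_55_P2153251 (1.48), Cdkn1c (2.20) and Igf2r (1.73) kept their call under it. Dlk1 (0.49, adjusted p = 0.369), Ndn (1.15, 0.118), Gnas A_55_P2081318 (0.82, 0.1) and Meg3 A_52_P196568 (1.89, 0.091) lost it. Meg3 A_51_P455997 kept its lower call, with a larger difference (-4.09, limma adjusted p = 0.00993). The downstream Plagl1 probes (-1.89 and -2.84) and Mest A_51_P124535 (-2.18) were then called lower. Meg3 A_52_P196568, Plagl1 A_52_P532456 and Mest A_51_P124535 were at background on both arrays of a group, so their values here are fitted ones. Slide as a random block also ended the calls of Dlk1 (adjusted p = 0.15) and Meg3 A_52_P196568 (0.0998), and normexp background correction turned Meg3 A_51_P455997 to 0.23 (0.788). Tissue, vector, slide and scan cannot be told apart in this comparison, since BM arrays share 1 slide and FL arrays lie on the other 2.

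**Figure D2:**
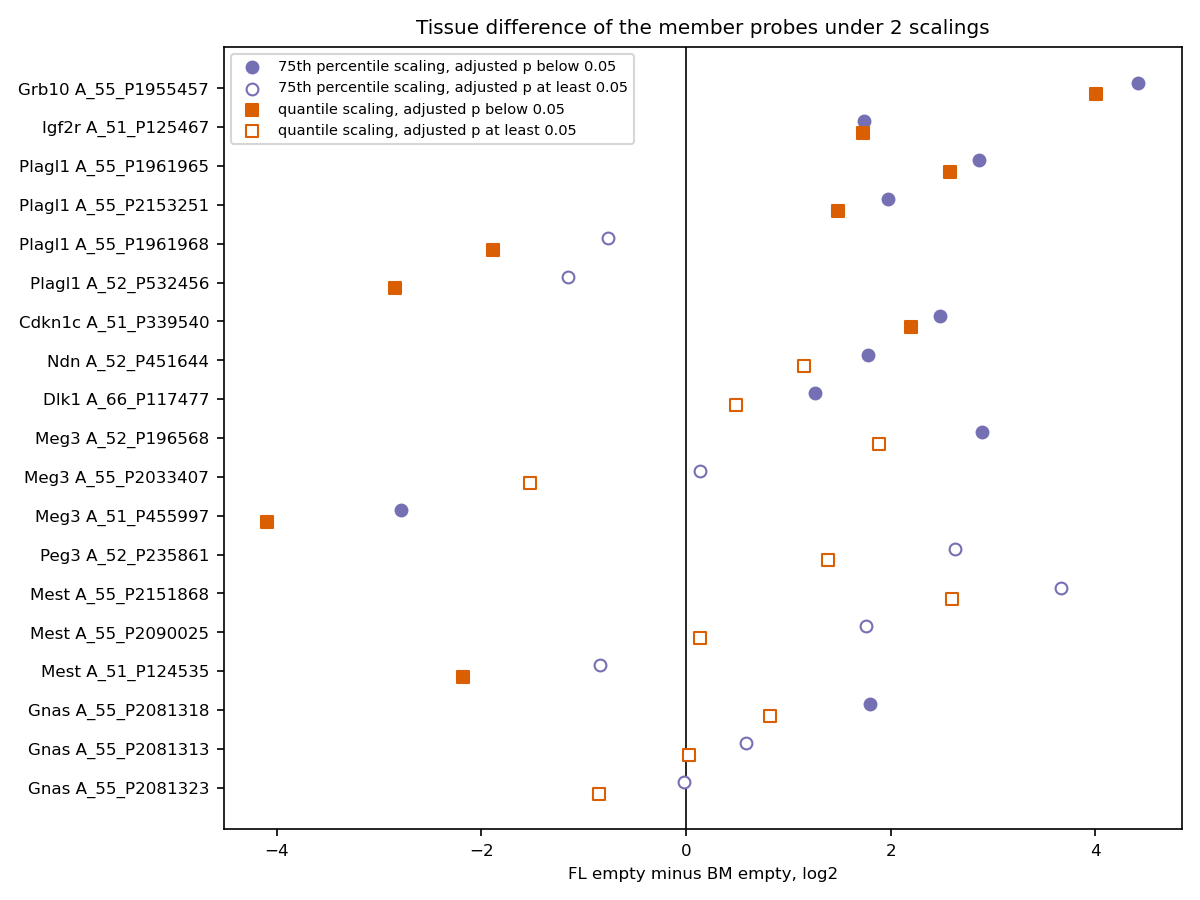
Difference between FL and BM cells with the empty vector (x axis, log2) for each tested probe (y axis), with 75th percentile scaling (circles) and quantile scaling (squares); filled symbols have an adjusted p below 0.05. Quantile values lie to the left, and 5 probes (Grb10, Igf2r, Cdkn1c and 2 of Plagl1) are filled on the higher side under both.

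Markers of other cells differed between these arrays too. The summed level of 12 myeloid markers was 61.2 and 28.9 in FL cells, against 9.16 and 9.61 in BM cells. Of 10 tested markers, 4 were called higher (Elane, 2.53) and 1 lower. Itgam, the brightest tested marker, averaged 4.95 in FL cells and 3.09 in BM cells and was not called. The median level of the 12 was -6.08 and -2.55 in FL cells, against -5.18 and -5.09 in BM cells. Well above background were 5 and 7 of them in FL cells, against 7 and 8 in BM cells. Among 24 stromal markers the sums were 11.4 and 14.3 against 22.7 and 27.1, with 2 of 21 tested called higher and 8 lower (Timp1, -3.32). Of 10 hepatocyte markers, 3 were tested, Apoa2 was called higher (2.44), and the defining marker Alb was at background on all 8 arrays. Trf (-0.58) was not called, nor was Afp, which averaged -7.16 in FL cells, at background, against -6.32 in BM cells. With quantile scaling both were called lower (-1.03 for Trf, and -2.13 fitted for Afp). The summed level of 9 erythroid markers was 0.493 and 0.381 against 0.215 and 0.198, with 3 of 6 tested called higher. The part of these cells in the members' differences was not tested.

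Genes around the members in the same pathways were read from lists, with the brightest probe per gene (over all genes 40.1% were called higher and 19.5% lower, and the median difference was 0.52). Of 42 tested imprinted genes outside the 10, 23 were higher and 4 lower in FL cells, with a median of 1.12. They include H19, a maternally expressed noncoding RNA (5.59 ± 0.16), Ddc, which encodes aromatic amino acid decarboxylase and neighbours Grb10 (3.65 ± 0.16), Mcts2 (2.64 ± 0.16) and the splicing gene Snrpn (3.57 ± 0.25). After quantile scaling 16 were higher and 6 lower, with a median of 0.56.

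Of 18 genes of IGF and insulin signalling, 9 were higher and 1 lower (median 0.82; 6 and 3 after quantile scaling). The higher ones include the insulin receptor substrate Irs1 (3.29 ± 0.18), the ligand Igf1 (2.75 ± 0.29) and the mRNA-binding proteins Igf2bp1 (5.46 ± 0.20) and Igf2bp3 (3.25 ± 0.23). Of 13 genes that maintain imprints and DNA methylation, 6 were higher, among them Zfp57 (2.12 ± 0.37), which binds imprinting control regions, and its partner Trim28 (0.77 ± 0.13). Another 4 were lower, among them the helicase Hells (-2.54 ± 0.31). Beside Cdkn1c, 2 of 6 other cell cycle inhibitors were higher (Cdkn1b, 0.92 ± 0.20, and Cdkn2d, 0.94 ± 0.22) and 3 lower (Cdkn2a, -1.49 ± 0.16). Of 14 genes of Gs and cAMP signalling, 5 were higher and 2 lower. The medians were 0.37 for imprint maintenance, -0.55 for the other inhibitors and 0.21 for Gs signalling, against 0.52 over all genes. After quantile scaling, 4 were higher and 4 lower for imprint maintenance, 2 and 3 for the inhibitors, and 3 and 3 for Gs signalling.

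**Figure D3:**
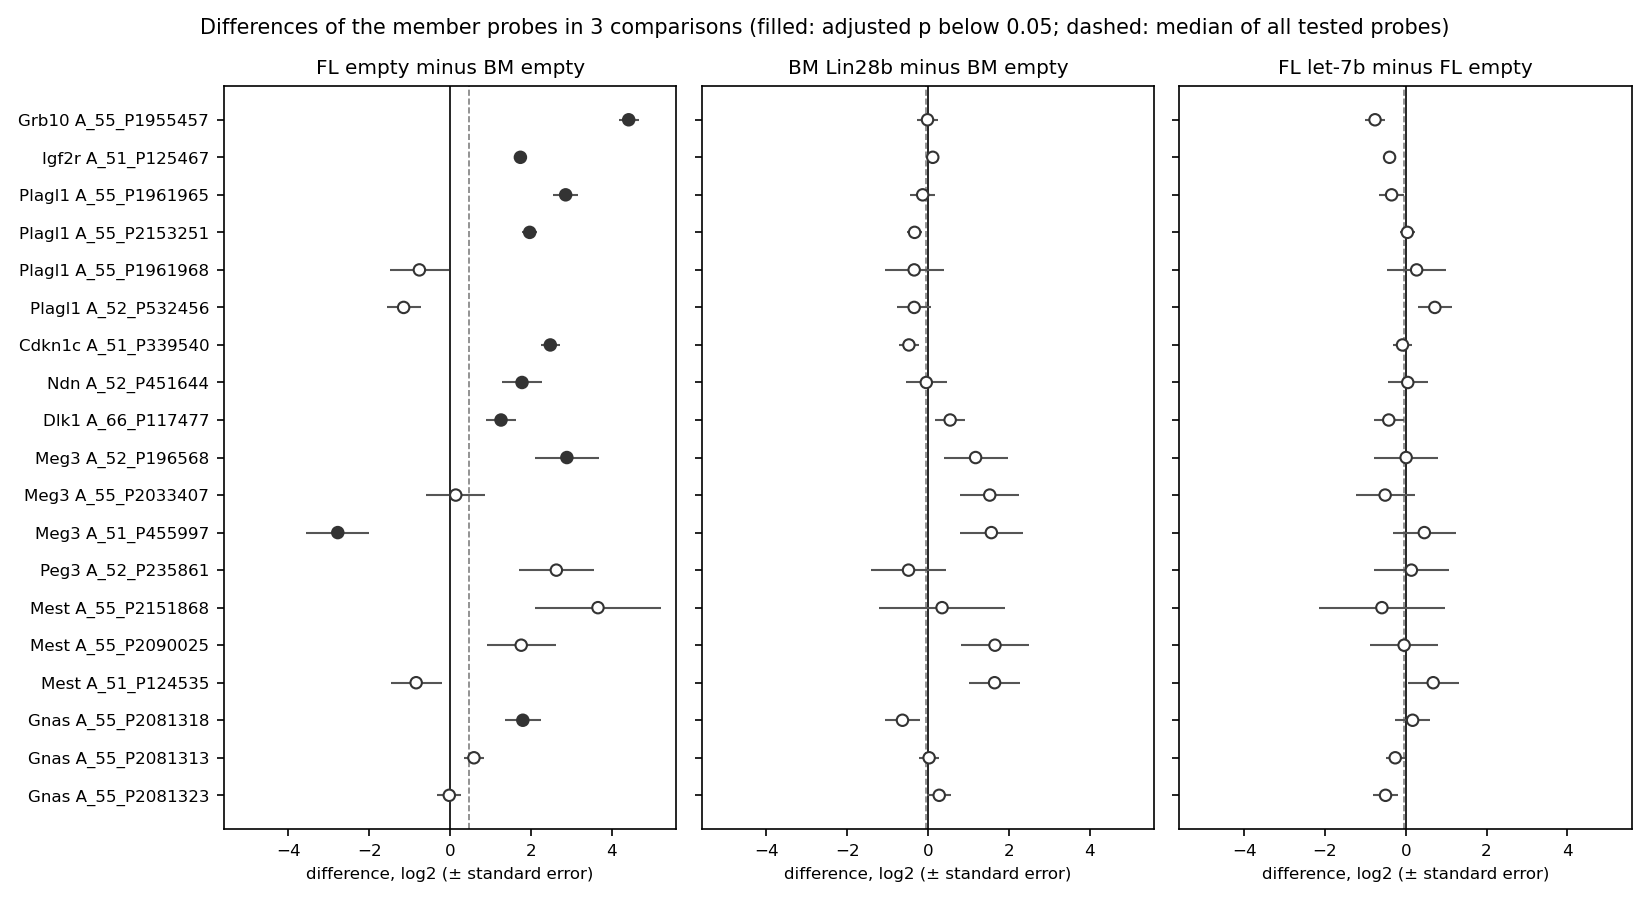
Differences (x axis, log2, with standard error) of each tested probe (y axis) between FL and BM cells with the empty vector, between Lin28b and empty vector in BM cells, and between let-7b and empty vector in FL cells; filled points have an adjusted p below 0.05, values of probes at background in a group are fitted ones, and dashed lines mark the median of all tested probes. Filled points appear only in the tissue comparison (9 higher, 1 lower).

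The second comparison asked what Lin28b does to the same genes in BM cells. The 3 Meg3 probes and 2 of 3 Mest probes lay higher in both Lin28b sorts than in either control sort, but no member passed. With limma 0 of 19 probes were called (smallest adjusted p = 1), against 0.00352% of all probes, namely Lin28b probe A_52_P532355 alone. At an unadjusted p below 0.05 there was 1 member probe, Mest A_51_P124535, against 3.46% of all probes. The groups did not overlap for 13 of 19 probes (8 higher, 5 lower), against 51% of all probes (17.8% higher, 33.3% lower).

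Meg3 gave the same sign on its 3 probes. A_51_P455997 was at -1.08 and -1.69 with Lin28b, against -3.45 and -2.46 with the empty vector, a difference of 1.57 ± 0.78 (limma, adjusted p = 1). A_55_P2033407 was at -4.21 and -4.94 against -6.83 and -5.37 (1.53 ± 0.73), and A_52_P196568 at -5.07 and -6.72 against -7.12 and -7.03, at least 1.76-fold. The values with Lin28b lay above those with the empty vector each time, and sorts of 1 group differed from each other by amounts of the same order. Mest A_51_P124535 was at -4.36 and -4.89 with Lin28b and at -5.48 and -7.06 with the empty vector (1.65 ± 0.63, limma adjusted p = 1). Its probe A_55_P2090025 was at least 1.76-fold higher with Lin28b (-5.72 and -6.07 against -7.16 and -7.96), while the coding probe was at background on all 4 BM arrays. Dlk1, next to Meg3 in the genome with 83964 bases between their nearest probes, was at -3.52 and -4.31 against -4.40 and -4.54 (0.55 ± 0.37, limma adjusted p = 1).

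**Figure D4:**
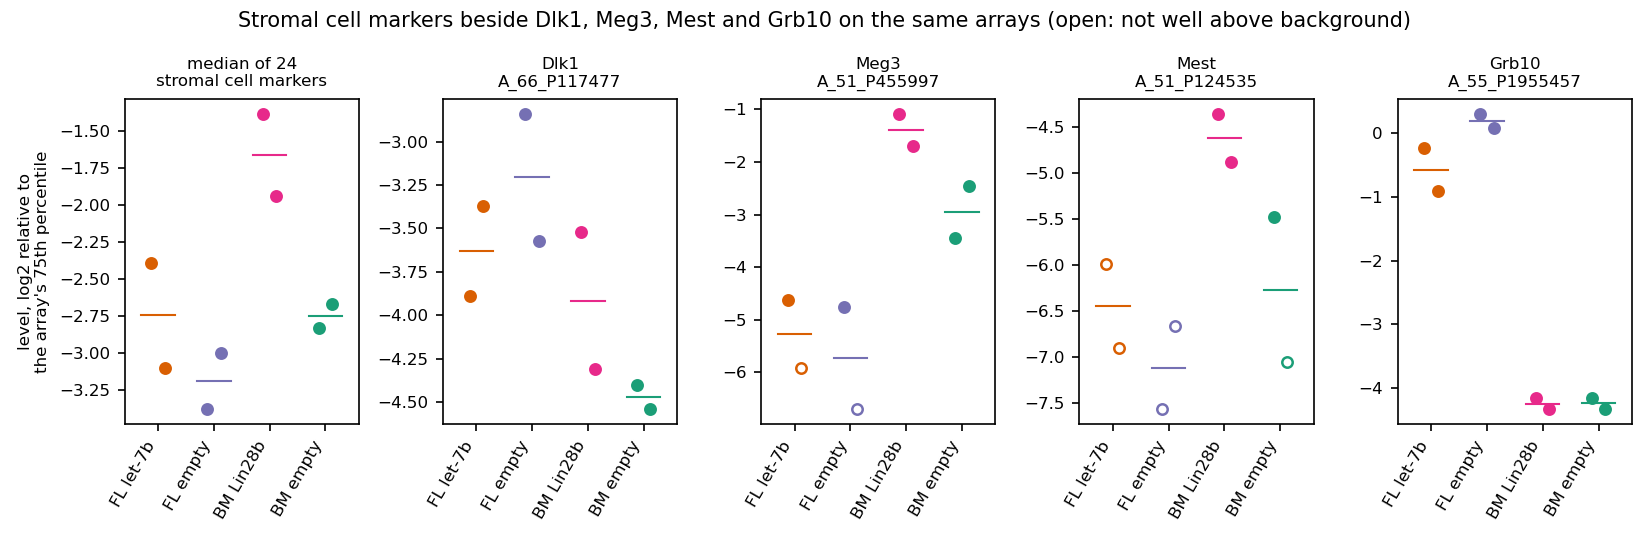
Median level of 24 stromal markers beside Dlk1, Meg3, Mest and Grb10 by array (y axis: log2 relative to the array's 75th percentile; x axis: group; open points are not well above background, lines are means of 2 arrays). The 2 Lin28b arrays are highest for the stromal markers, Meg3 A_51_P455997 and Mest A_51_P124535, and lie with the other BM arrays for Grb10. Dlk1 is highest on an FL empty-vector array (-2.84), against -3.52 and -4.31 with Lin28b. Of the probes not plotted, Meg3 A_55_P2033407 was also highest with Lin28b. Meg3 A_52_P196568, Mest A_55_P2090025 and Mest A_55_P2151868 were highest on an FL array.

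Stromal markers moved on the same arrays. All 21 tested stromal markers differed in the positive direction with Lin28b (median 1.02), with 0 called by limma. The summed level of the 24 on the array was 59 and 38.4 with Lin28b, against 22.7 and 27.1 with the empty vector. Fstl1, a secreted glycoprotein of stroma, differed by 1.02 ± 0.24 and the collagen gene Col5a1 by 1.11 ± 0.27. Lin28b replicate 1 was the higher of its group for the stromal sum, for Dlk1, for all Meg3 probes and for all Mest probes. This match was not general. Of the BM control sorts, the one with the higher stromal sum was higher for all Meg3 probes and lower for Dlk1 and all Mest probes. Of the let-7b sorts, the one with the higher stromal sum was lower for Dlk1. Myeloid markers summed to 7.67 and 10 with Lin28b, against 9.16 and 9.61 with the empty vector, but their median level was -4.49 and -3.30 with Lin28b, against -5.18 and -5.09. Of the 12, 10 and 12 were well above background with Lin28b, against 7 and 8 with the empty vector. S100a9 and S100a8, calcium-binding proteins of neutrophils, averaged -2.02 and -3.86 with Lin28b and were at background on both control arrays (limma, adjusted p = 1 each). The part of stromal and myeloid RNA in the values of Meg3, Mest and Dlk1 was not tested.

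The genes with the firmest tissue difference had levels near those of the BM control with Lin28b. Grb10 was at -4.15 and -4.33 with Lin28b, against -4.15 and -4.32 with the empty vector. Its difference of -0.01 ± 0.25 has a 95% interval of -0.62 to 0.61. Igf2r (0.26 and 0.29 against 0.18 and 0.13; 0.12 ± 0.13, interval -0.19 to 0.43) and the Plagl1 coding probe (-3.26 and -3.30 against -3.21 and -3.10; -0.13 ± 0.31, interval -0.89 to 0.64) were also close to their controls. Cdkn1c was at -3.77 and -3.25 against -3.02 and -3.07, a difference of -0.47 ± 0.24 with both Lin28b arrays below both controls (limma, adjusted p = 1). Ndn differed by -0.04 ± 0.50, and the 3 Gnas probes by 0.03 ± 0.24, 0.28 ± 0.30 and -0.63 ± 0.44. The part of Lin28b in the tissue differences was not tested, as tissue, vector, slide and scan cannot be told apart there. The BM empty-vector arrays are shared with the tissue comparison, and the spread used for BM is pooled with the wider FL spread.

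The lists around the members had 0 calls in either direction with Lin28b. H19 differed by 2.49 ± 0.16 (limma, adjusted p = 0.106), Slc22a18 by 1.55 ± 0.30 and Snrpn by 0.90 ± 0.25 (both adjusted p = 1). The 42 other imprinted genes had a median of -0.06, and all genes had -0.04. In the IGF list Igf2bp1 had the smallest adjusted p (1.56 ± 0.20, limma adjusted p = 0.72).

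The third comparison asked what let-7b does in FL cells. Grb10 and Igf2r lay lower in both let-7b sorts than in either control sort, but no member passed: 0 of 19 probes were called with limma (smallest adjusted p = 0.413), against 0.0246% of all probes (0.0176% higher, 0.00704% lower). At an unadjusted p below 0.05 there were 2 member probes, against 9.64% of all probes. The groups did not overlap for these same 2 probes, both lower, against 29.9% of all probes (11.8% higher, 18.2% lower).

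Grb10 was at -0.24 and -0.91 with let-7b, against 0.30 and 0.07 with the empty vector. The difference was -0.76 ± 0.25 (limma, adjusted p = 0.439), with -0.54 on the second slide and -0.98 on the third. Igf2r was at 1.59 and 1.41 with let-7b and at 1.88 and 1.92 with the empty vector. It differed by -0.40 ± 0.13 (limma, adjusted p = 0.413), with -0.28 and -0.51 on the 2 slides. With the slide as a block, the adjusted p was 0.312 for Grb10 and 0.398 for Igf2r. By mean level the 4 groups order as FL empty vector, FL let-7b and then the BM groups for both genes, with the step to let-7b not called. The BM groups of Grb10 do not differ beyond their spread.

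For the other tested probes the let-7b and empty-vector arrays overlapped. Cdkn1c was at -0.39 and -0.89 with let-7b, against -0.54 and -0.58 with the empty vector (-0.08 ± 0.24). The Plagl1 coding probe was at -0.19 and -1.11 against -0.15 and -0.44 (-0.35 ± 0.31), and Ndn at -1.86 and -2.88 against -1.80 and -3.05 (0.05 ± 0.50). Ndn is a case where the sorts of 1 slide lay close together and the slides apart. Dlk1 was at -3.89 and -3.37 against -2.84 and -3.57 (-0.42 ± 0.37). Meg3 A_51_P455997 was at -4.63 and -5.91 against -4.76 and -6.70, Peg3 at -4.20 and -6.41 against -4.45 and -6.45, and the main Gnas probe at 5.89 and 5.48 against 6.23 and 5.66. In these 3 the second sort was the lower one in both groups. Of the remaining probes, those of Plagl1, Mest, Gnas and Meg3 had differences of -0.59 to 0.72, none with an adjusted p below 0.659.

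Among the other imprinted genes H19 was lower with let-7b (-3.63 ± 0.16, limma adjusted p = 0.0254), the 1 call of 42 (over all genes 0.0218% were called higher and 0.00872% lower), and the median was -0.06. In the other pathway lists limma called 0 genes. Irs1 differed by -0.85 ± 0.18 (limma, adjusted p = 0.255) and Igf2bp1 by -0.85 ± 0.20 (adjusted p = 0.294). The summed level of stromal markers was 24.1 and 17.3 with let-7b, against 11.4 and 14.3 with the empty vector, and 17 of 21 were positive.

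Over the 8 arrays Grb10, Igf2r, Cdkn1c and Plagl1 had pairwise Pearson r of 0.97 to 1.00, on arrays that fall into 2 tissues. After each tissue's mean was removed the range was 0.09 (Igf2r with Cdkn1c) to 0.88 (Igf2r with Grb10), with 0.30 for Cdkn1c with Grb10, over arrays that share slides. Of 17082 named genes searched, 3417 had a Pearson r above 0.95 with Grb10, led by Kcna6, Cox4i2 and 1110032A03Rik (0.999 each). Igf2r (Gpr3, 0.999) and Cdkn1c (Gm5565, 0.999) were similar in this, with 3181 and 3188 genes above 0.95. Meg3 A_51_P455997 was matched above 0.95 by 138 genes, led by Cgref1 (0.992), Gdf15 (0.987) and Inhba (0.986), and Dlk1 by 2, led by Fhl1 (0.971). Mest A_51_P124535 was matched so closely by 0 genes, with Fat1 at 0.93.

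The CpG content of the members' promoters was counted in 300-base windows around RefSeq starts (GRCm38.p6). The members were chosen as imprinted genes, so this content may not be independent of the choice. Promoters were matched for 9 members, 16 windows in all. Some windows overlap, namely those of Gnas with 28 and 27 CpG and those of Mest with 17 each. They held 1 to 45 CpG, against a median of 7 over 32851 promoters. Grb10 has both the highest count (45, more than in 98.1% of promoters) and a second promoter with 9, Gnas has 40 (more than in 96.1%) beside others with 28, 27 and 16, and Igf2r has 34. Meg3 has the lowest (1) beside one with 13.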

How the data were processed

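Per the file headers, the authors' scanner files hold spot intensity values, processed (background-corrected) by Agilent Feature Extraction 9.5.3.1 before deposit. A further table of log2 values was deposited by the authors. How it was normalized the sources used here do not give, so it served only as an alternative within a tissue. Each processed signal was put on the log2 scale and set relative to its array's 75th percentile over 43020 non-control spots, copies of a probe were averaged, and 31 probes with outlier flags were left out. limma 3.58.1 (R 4.3.3, the package data.table (1.17.8); plots with Python 3.11.15 and matplotlib 3.10.9) fitted 1 mean per group over 8 arrays, probe by probe. P-values were adjusted with Benjamini-Hochberg over 28409 probes and called below 0.05. Errors are limma's standard errors. The script was tested on simulated data.

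Where a member probe was at background on both arrays of a group and brighter in the other, the comparison gives a bound, written "at least N-fold", where it is above 1. Values of such probes under alternatives, with an array left out or in plots are fitted differences, not measured folds. It sets the brighter group's mean against the larger, per array, of the probe's own level and the lowest level counted as well above background. An exact permutation test of 2 against 2 arrays cannot go below p = 0.333, so calls depend on limma's pooling of the spread over probes (prior degrees of freedom 1.72). Precision is limited by the number of arrays. The members and lists were chosen with earlier results of these data known. All probes of the members are named, and of other lists up to 4 genes by smallest p. Likeness was ranked by Pearson r of the brightest tested probe. The alternatives were normexp background correction with offset 50, quantile scaling, other filters, eBayes with trend and robust, a replicate block, fewer arrays, the brightest probe per gene, the deposited table and leaving out each array. Slide as a random block was added after the data were seen. The sequence of 1 Meg3 probe is not reported here.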

Additional observations from a re-analysis of the deposited data

How the results depend on the processing

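Grb10, Igf2r, Cdkn1c, Plagl1 A_55_P1961965 and A_55_P2153251 kept their call between the tissues in all 17 or 16 alternatives run for each, with ranges of 3.68 to 4.53, 1.5 to 1.77, 2.2 to 2.5, 2.57 to 3 and 1.48 to 2.06. Over its alternatives, Grb10 with let-7b ranged over -1.10 to -0.42 and Igf2r over -0.60 to -0.31. The number of probes called with Lin28b (1) became 0 with normexp, 4 with quantile scaling, 2 with trend and robust, 0 with a replicate block, 3 in the deposited table, 0 with the brightest probe per gene, 2 with only the 4 arrays compared, 6 with slide as a random block (chosen after the data were seen), and 0 to 1 with an array left out. With let-7b (7) it became 0 with normexp, 76 with quantile scaling, 0 with no filter, 70 with probes well above background on all 8 arrays, 89 with trend and robust, 0 with a replicate block, 58 in the deposited table, 0 with only the 4 arrays compared, 256 with slide as a random block, and 0 to 625 with an array left out, the highest without FL empty vector replicate 1. Between the tissues (16733) it was 11967 with normexp (10058 higher, 1909 lower), 23400 with no filter, 13001 with slide as a random block, 14714 with quantile scaling, 13657 to 17392 in the other alternatives that leave out no single array (16832 with a replicate block), and 10932 to 17463 with an array left out, the lowest without BM empty vector replicate 1 (11093 without replicate 2). The causes were not tested. Same-numbered arrays deviated together in FL (correlation 0.514), where number and slide coincide, and not in BM (-0.0613). The numbers are not shown to pair sorts, and between the tissues the block added calls for Peg3 A_52_P235861 (adjusted p = 0.0316), Plagl1 A_52_P532456 (0.0236) and Mest A_55_P2090025 (0.0266). Slide as a random block ended the tissue calls of Dlk1 (0.15) and Meg3 A_52_P196568 (0.0998). With normexp the median of all probes was 0.97 between the tissues (0.47 without it) and 0.36 with let-7b (-0.05 without it). Normexp turned the tissue difference of Meg3 A_51_P455997 to 0.23 (adjusted p = 0.788), of Plagl1 A_52_P532456 and A_55_P1961968 to 1.54 each, of Mest A_51_P124535 to 1.69 and of Gnas A_55_P2081323 to 0.98. It added tissue calls for Peg3 A_52_P235861 (adjusted p = 0.0282), Mest A_55_P2090025 (0.0374) and Mest A_55_P2151868 (0.0435). The call of Meg3 A_51_P455997 was lost with only the 4 arrays compared (0.0547). With let-7b normexp turned Dlk1 to 0.41, Meg3 A_55_P2033407 to 0.78, Cdkn1c to 0.13, Mest A_55_P2090025 to 0.91, Mest A_55_P2151868 to 0.40 and Gnas A_55_P2081323 to 0.48. Quantile scaling turned Meg3 A_52_P196568 (-0.04) and Mest A_55_P2090025 (0.08) with let-7b and Meg3 A_55_P2033407 (-1.52) between the tissues. The deposited table turned Peg3 (0.03) and Grb10 (0.02) with Lin28b, and Meg3 A_52_P196568 (-0.12) and Mest A_55_P2090025 (0.01) with let-7b. No value was called after such a change. With an array left out, signs also changed for uncalled values with Lin28b (Grb10, -0.09 to 0.08, Mest A_55_P2151868, -0.33 to 1.02, Ndn, -0.19 to 0.10, Gnas A_55_P2081313, -0.05 to 0.10), between the tissues (Meg3 A_55_P2033407, -0.64 to 0.91, Gnas A_55_P2081323, -0.13 to 0.08) and with let-7b (Meg3 A_51_P455997, -0.51 to 1.43, A_52_P196568, -1.03 to 1.04 and A_55_P2033407, -1.29 to 0.27, Peg3, -0.96 to 1.25, Cdkn1c, -0.33 to 0.17, Plagl1 A_55_P1961965, -0.81 to 0.11, A_55_P1961968, -0.74 to 1.29 and A_55_P2153251, -0.14 to 0.22, Mest A_55_P2090025, -1.07 to 0.99 and A_55_P2151868, -2.87 to 1.70, Ndn, -0.58 to 0.68, Gnas A_55_P2081313, -0.54 to 0.02 and A_55_P2081318, -0.27 to 0.60). Signal over background limits Peg3, Mest and 2 of 3 Meg3 probes, which were not well above background on several arrays.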
